A study of Mus musculus with 6 samples.

Results

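The genes described here are those of the unfolded protein response and the integrated stress response, a list of 44 genes matched by symbol in a table of 54532 genes from injured mouse liver. The 44 symbols took up 45 rows, because Ddit3 had a further short gene model with 0 reads in all libraries. Of the 44 genes, 43 passed the filter on low counts. The remaining gene, Stc2, which encodes a secreted glycoprotein, had 3, 3 and 6 reads in IRF8-cKO and 9, 4 and 6 reads in WT.

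RNA came from the ischemic lobe of the liver of C57BL/6 mice subjected to 1 h of warm ischemia followed by 12 h of reperfusion, a model in which the blood supply of part of the liver is closed and then reopened. In the IRF8-cKO group, interferon regulatory factor 8 was deleted in hepatocytes (3 libraries, IRF8-cKO-88, IRF8-cKO-71 and IRF8-cKO-106), and the other group was wild type (WT, 3 libraries, named WT-14, WT-77 and WT-44). Every mouse had the same injury, so each value is a level in injured tissue. The Cre driver, the age and the sex of the mice are not given by the labels, nor is it stated that each library is a separate animal. Values are listed in ascending order of library number within each group.

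Secreted and membrane proteins fold in the endoplasmic reticulum (ER). When unfolded protein builds up there, the sensors ATF6, IRE1 (gene Ern1) and PERK (gene Eif2ak3) start the unfolded protein response. ATF6 and XBP1, which IRE1 activates by splicing its mRNA, drive genes of chaperones and of ER-associated degradation, the route by which misfolded proteins are carried back to the cytosol and destroyed. PERK phosphorylates the translation factor eIF2, the step shared with the other kinases of the integrated stress response, and this lets ATF4 be translated and switch on genes of amino acid supply and, under lasting stress, of cell death. Hepatocytes secrete most plasma proteins and depend on this system.

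The libraries held 14758237 to 16805830 counted reads. The deleted gene, Irf8, stood at 5.67, 6.72 and 4.17 CPM (read counts scaled for library size and composition) in IRF8-cKO and at 9.32, 9.50 and 10.3 CPM in WT (log2 fold change -0.81, SE 0.33, adjusted p = 0.174), and did not pass. A count over the whole gene does not show whether an exon was lost, and Irf8 is also expressed by immune cells of the liver. Of 8 cell type marker lists, that of hepatocytes summed to 74586 to 99248 CPM in IRF8-cKO and 95860 to 133213 CPM in WT, with overlap. Most of this sum was Alb, at 46924 to 58879 CPM in IRF8-cKO and 61800 to 88708 CPM in WT. Of the 10 hepatocyte markers, 4 had positive and 6 had negative log2 fold changes. The lists of neutrophils, cholangiocytes and red cells summed to 23.4 to 53.3, 130 to 252 and 101 to 151 CPM in IRF8-cKO. In WT these 3 lists summed to 183 to 225, 458 to 947 and 216 to 318 CPM. At an adjusted p under 0.05, 5 of 8 tested neutrophil markers and 1 of 5 red cell markers were lower in IRF8-cKO and 0 of the other lists' markers were called. Endothelial and stellate cell markers summed to 128 to 193 and 178 to 299 CPM in IRF8-cKO and to 137 to 194 and 217 to 329 CPM in WT. In no list was a marker without a read in all libraries. The share of reads from the mitochondrial genome was 5.99% to 7.14% in IRF8-cKO and 7.19% to 20.2% in WT. What part these shifts have in the values below was not tested, and in bulk tissue fewer cells of a type and less RNA per cell cannot be told apart.

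Most ER chaperone and degradation genes were high in 2 of the 3 IRF8-cKO libraries and not in the third. In IRF8-cKO-71 20 of the 43 tested members stood above 2 times the WT mean, and in IRF8-cKO-88 24 did. In IRF8-cKO-106 only Atf5 and Ern1 did. The median member stood at 1.95 times the WT mean in IRF8-cKO-71, at 2.31 times in IRF8-cKO-88 and at 0.933 times in IRF8-cKO-106. IRF8-cKO-106 was above the highest WT library for 12 members, within the WT range for 13 and below it for 18, and it was the lowest IRF8-cKO library for 31. It also had the largest composition factor, 1.32. Those of the other IRF8-cKO libraries were 0.966 and 0.990, and those of WT 0.786 to 1.07. CPM are divided by this factor, so where IRF8-cKO-106 stands against the WT range depends on the scaling. With library totals as the only scaling, 17 members instead of 10 were higher without overlap, with no share of all tested genes given. Placements of IRF8-cKO-106 for single members, here and below, hold for CPM with the factor applied. The 9 Kupffer cell markers were also lowest in IRF8-cKO-106 within IRF8-cKO, summing to 335 CPM in IRF8-cKO-71, 231 CPM in IRF8-cKO-88 and 112 CPM in IRF8-cKO-106, against 118, 126 and 102 CPM in WT. All 9 had positive log2 fold changes and the groups did not overlap for 4, beside 14.4% of all tested genes that were higher without overlap. The part of these markers' cells in the members' values was not tested.

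**Figure D1:**
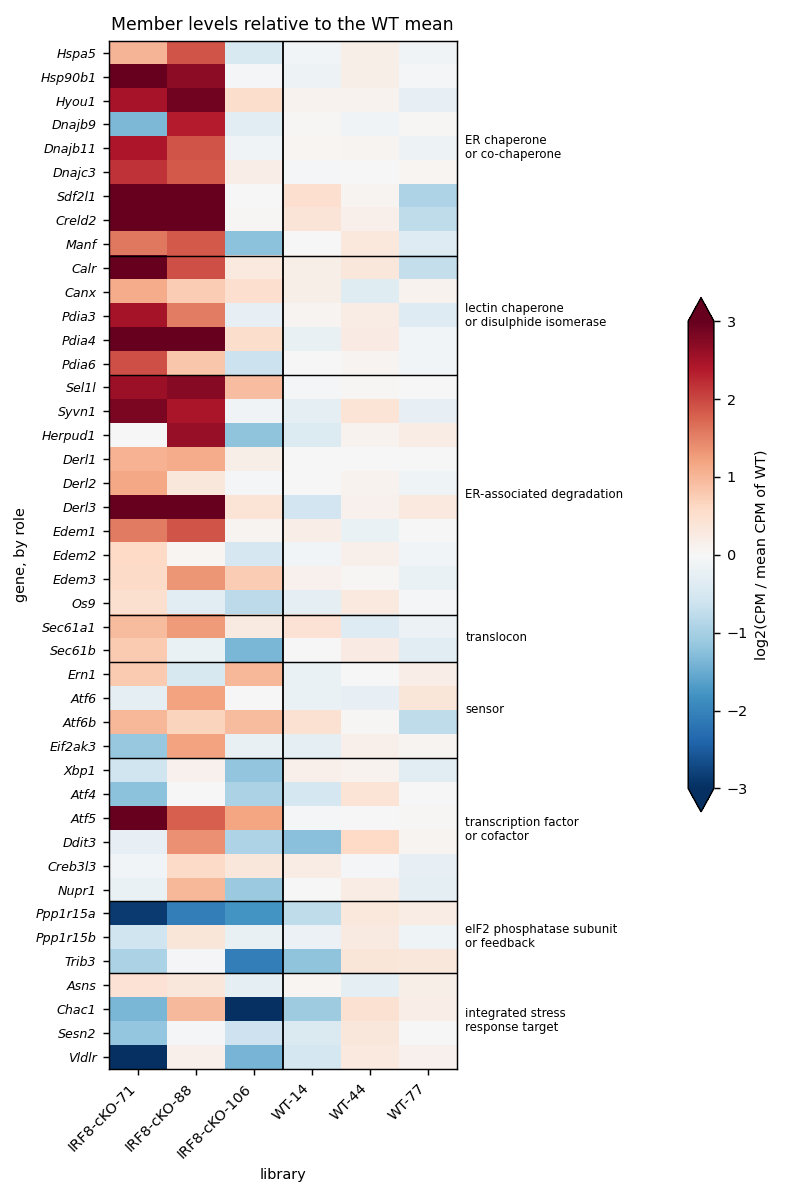
Heat map of the 43 tested members (rows, by role) in the 6 libraries (columns, IRF8-cKO left of the line), coloured by the log2 ratio of CPM to the mean CPM of WT, with colours saturating at 3 in either direction. Chaperone and degradation genes are mostly red in both IRF8-cKO-71 and IRF8-cKO-88 and near white in IRF8-cKO-106, while genes of the eIF2 branch at the bottom are mostly white or blue.

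The spread of the members within IRF8-cKO was wide. Between the highest and the lowest library of a group, the log2 range of the median member was 2.01 in IRF8-cKO and 0.48 in WT, while that of the median tested gene was 0.85 in IRF8-cKO and 0.64 in WT. In IRF8-cKO 22 of 43 members (51.2%) spanned more than 4-fold, against 10.2% of all tested genes. In WT 0 members did, against 4.36% of all tested genes.

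With p adjusted over all 13134 tested genes by edgeR (threshold 0.05), 2 members rose in IRF8-cKO, Sel1l and Atf5, and 1 fell, Ppp1r15a. Of all tested genes 0.449% were called higher and 0.937% lower. At an unadjusted p under 0.05, 19 members were higher and 1 was lower, beside 12.1% and 12% of all tested genes. The groups did not overlap for 10 members that were higher and 1 that was lower in IRF8-cKO, 23.3% and 2.33% of the members, and for 14.4% and 14.5% of all tested genes. The median log2 fold change was 0.87 over the members and 0.03 over all tested genes, with 33 members positive and 10 negative. DESeq2 called 14 members higher and 1 lower, beside 4.08% and 5.37% of its tested genes, and limma-voom called 0 higher and 1 lower, beside 0.175% and 0.67%.

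The calls moved when single libraries were left out. Without IRF8-cKO-106, 10 members were called higher and 0 lower, at log2 fold changes from 2.03 to 7.22 and adjusted p from 0.0157 to 0.0485, beside 0.0964% of all tested genes called higher and 0.0519% lower. These were Hsp90b1, Hyou1, Dnajb11, Dnajc3, Sdf2l1, Creld2, Pdia4, Sel1l, Syvn1 and Derl3, and they made up 10 of the 13 genes called higher in that fit. IRF8-cKO-106 was the lowest IRF8-cKO library for each of them, so leaving it out raised their fold changes by design. The members were also chosen with earlier results of these data known, so this share is a description and no independent support. The groups then did not overlap for 24 members that were higher, beside 19% of all tested genes. Without IRF8-cKO-71 edgeR called 1 member higher and 1 lower, beside 0.317% and 0.737% of all genes. Leaving out IRF8-cKO-88 gave 3 higher and 1 lower, beside 4.21% and 4.61%, and leaving out WT-14 gave 0 higher and 1 lower, beside 0.235% and 0.786%. Without WT-44 or without WT-77 edgeR called 0 members, beside 0.00733% and 0% of all genes called higher and 0% called lower. At an unadjusted p under 0.05, 15 members were higher and 1 was lower in either fit. No share of all genes is given for these unadjusted counts.

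**Figure D2:**
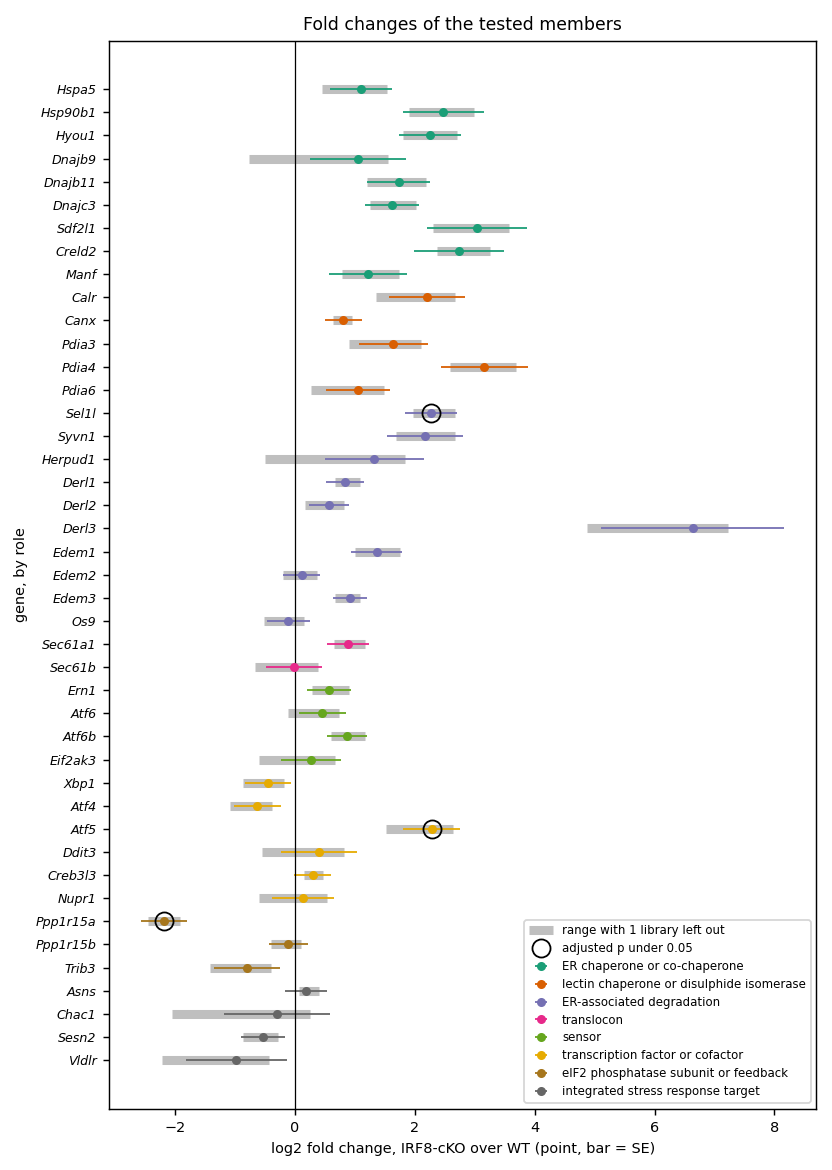
Log2 fold change of each tested member in IRF8-cKO over WT (points, coloured by role) with its standard error (thin bar), the range when each library is left out in turn (grey band), and a ring around genes with adjusted p under 0.05. The ER chaperone and degradation genes lie mostly to the right of 0, up to 6.64 for Derl3, and the ringed genes are Sel1l, Atf5 and Ppp1r15a.

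The promoters of the members were read for the letters that the factors of the pathway are known to bind. The ER stress response element (ERSE), bound by ATF6 and XBP1, is CCAAT and CCACG held apart by 9 bases. The C/EBP-ATF response element (CARE), bound by ATF4 with a partner, was searched as TGATGNAAN, and the XBP1 element UPRE as TGACGTGG or TGACGTGA. Windows of 300 bases, 250 before and 50 after each RefSeq transcript start (GRCm38.p6), were found for 38 of the 44 members, 42 windows in all, and were searched on both strands. ERSE was present in 9 member windows (21.4%) and in 39 of 32851 windows of all genes (0.119%). CARE was present in 6 member windows (14.3%) and in 3.95% of all windows. Of the UPRE forms, TGACGTGA was present in 1 member window, that of Hspa5, and in 0.441% of all windows, and TGACGTGG in 0 member windows and 0.676% of all windows. ERSE was first described in promoters such as those of Hspa5, Hsp90b1 and Calr, so the shares describe known promoters. No match says only that these letters are not in the window, as for Sel1l, Atf5 and Ppp1r15a.

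The ERSE sites are shown because every gene that carries one had a positive log2 fold change. All of these genes belong to the chaperone, lectin chaperone or isomerase, and degradation roles. In these roles 9 of 9, 5 of 5 and 9 of 10 tested genes were positive, with or without ERSE. They are read along the motif with 6 bases on either side, and capitals mark the fixed letters.
Hspa5, chr2:34772019-34772049, plus strand: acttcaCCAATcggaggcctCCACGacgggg
Hsp90b1, chr10:86705527-86705557, plus strand: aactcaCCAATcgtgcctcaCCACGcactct
Hsp90b1, chr10:86705632-86705662, minus strand: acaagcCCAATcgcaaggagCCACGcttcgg
Creld2, chr15:88819514-88819544, minus strand: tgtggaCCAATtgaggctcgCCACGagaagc
Dnajc3, chr14:118937821-118937851, plus strand: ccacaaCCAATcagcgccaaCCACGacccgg
Calr, chr8:84847069-84847099, plus strand: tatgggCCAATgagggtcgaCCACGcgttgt
Canx, chr11:50325794-50325824, minus strand: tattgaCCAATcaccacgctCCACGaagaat
Pdia6, chr12:17266485-17266515, plus strand: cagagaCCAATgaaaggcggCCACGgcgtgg
Syvn1, chr19:6046526-6046556, plus strand: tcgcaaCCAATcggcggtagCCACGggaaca
Derl3, chr10:75893236-75893266, minus strand: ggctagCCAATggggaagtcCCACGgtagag

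The CARE sites are shown for contrast, since the genes that carry them had log2 fold changes of both signs. Apart from Herpud1, a degradation gene, these genes belong to the transcription factor, feedback and target roles. Motif and role are therefore not separated in this contrast. Capitals again mark the fixed letters.
Chac1, chr2:119351042-119351062, minus strand: caggagTGATGcAAcggcagg
Trib3, chr2:152344033-152344053, plus strand: cccggcTGATGtAAacctgag
Asns, chr6:7693218-7693238, minus strand: gccacaTGATGaAActtcccg
Herpud1, chr8:94386310-94386330, minus strand: gcgggcTGATGcAAcccgccg
Nupr1, chr7:126625567-126625587, plus strand: cctgtcTGATGcAAtctggcc
Vldlr, chr19:27216813-27216833, minus strand: gagcgcTGATGcAActattgc

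The 9 genes with ERSE all had positive log2 fold changes, from 0.81 to 6.64 with a median of 2.17, and 7 had an unadjusted p under 0.05. Of the 6 genes with CARE 3 were positive and 3 negative, from -0.98 to 1.33 with a median of -0.08, and 0 had an unadjusted p under 0.05. Genes of the chaperone, isomerase and degradation roles with a window but no ERSE ranged from -0.11 for Os9 to 3.16 for Pdia4. No difference between these sets of genes was tested. The whole windows of Hspa5 (chr2:34771840-34772139, plus strand) and Derl3 (chr10:75893148-75893447, plus strand) show where the element lies before the start, with ERSE (reversed in Derl3) and, in Hspa5, UPRE in capitals.
Hspa5: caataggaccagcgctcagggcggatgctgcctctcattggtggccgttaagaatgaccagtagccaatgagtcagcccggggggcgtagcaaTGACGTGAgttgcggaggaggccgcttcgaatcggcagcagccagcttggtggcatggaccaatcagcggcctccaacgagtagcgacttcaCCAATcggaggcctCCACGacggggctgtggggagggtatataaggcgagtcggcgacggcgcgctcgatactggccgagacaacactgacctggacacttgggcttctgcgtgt
Derl3: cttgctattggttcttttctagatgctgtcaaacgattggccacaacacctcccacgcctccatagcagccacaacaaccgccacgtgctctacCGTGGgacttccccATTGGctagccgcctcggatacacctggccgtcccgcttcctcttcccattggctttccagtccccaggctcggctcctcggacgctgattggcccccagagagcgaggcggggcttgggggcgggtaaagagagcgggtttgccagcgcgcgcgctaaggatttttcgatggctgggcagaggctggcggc

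Among the sensors, Ern1, which encodes the kinase and ribonuclease IRE1, stood at 50.6, 21.0 and 59.0 CPM in IRF8-cKO and at 25.7, 29.0 and 33.6 CPM in WT. IRF8-cKO-88 was the lowest of all 6 libraries and the other IRF8-cKO libraries were the highest. Its log2 fold change of 0.57 (SE 0.37, adjusted p = 0.357) did not pass. Atf6, the membrane-bound factor that is cut free in the Golgi under stress, stood at 57.5, 160 and 70.9 CPM in IRF8-cKO and at 61.0, 59.3 and 89.1 CPM in WT, with IRF8-cKO-88 alone above the WT range. Its relative Atf6b stood at 24.7, 19.7 and 23.8 CPM in IRF8-cKO and at 17.1, 12.8 and 7.37 CPM in WT. The groups of Atf6b did not overlap, and its log2 fold change was 0.87 (SE 0.33, unadjusted p = 0.0258, adjusted p = 0.157). Eif2ak3, encoding PERK, stood at 11.8, 60.3 and 22.5 CPM in IRF8-cKO and at 21.7, 29.1 and 27.6 CPM in WT, so that IRF8-cKO-71 was the lowest and IRF8-cKO-88 the highest library. For Eif2ak3 the log2 fold change was 0.27 on all libraries and -0.60 with IRF8-cKO-88 left out.

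Of 4 sensor genes, 0 passed in edgeR, DESeq2 or limma-voom, and 1 had an unadjusted p under 0.05 in edgeR. Per kilobase of gene model the sensors ranked 34 to 38 of 44 members in IRF8-cKO. They had 5.23 to 10.4 RPKM (CPM per kilobase) in IRF8-cKO and 3.60 to 7.56 RPKM in WT. Hspa5 had the highest level per length in both groups, 1060 RPKM in IRF8-cKO and 493 RPKM in WT. Calr ranked 2 in IRF8-cKO with 634 RPKM and 3 in WT with 138 RPKM. Xbp1 ranked 8 in IRF8-cKO with 228 RPKM and 2 in WT with 312 RPKM.

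Among the transcription factors, Atf5, a factor of the integrated stress response that is also regulated through translation, rose. It stood at 585, 228 and 150 CPM in IRF8-cKO and at 63.9, 66.3 and 67.4 CPM in WT. Every IRF8-cKO library was above every WT library, at 2.27 times the WT mean or more. The means were 321 ± 232 CPM in IRF8-cKO and 65.9 ± 1.79 CPM in WT (SD, n = 3 each). Atf5 had a 4.87-fold difference, or 2.28 on the log2 scale (SE 0.47, adjusted p = 0.0495). It was 1.53 without IRF8-cKO-71 (adjusted p = 0.0419). It lost its call without IRF8-cKO-106 (adjusted p = 0.0554), WT-14 (0.0852), WT-44 (0.204) or WT-77 (0.208). With all libraries it also missed the threshold with limma-voom (0.0526), median-of-ratios scaling (0.0510), upper-quartile scaling (0.0511) and no robust shrinkage (0.0533). Atf5 (ENSMUSG00000038539, mm10 chromosome 7, 44812256 to 44816658, minus strand) shares bases with Nup62 on the plus strand, which had 2353 reads over all libraries beside 19240 for Atf5, and whether the counting used strand is not stated.

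The other factors did not pass. Atf4, the main effector of the integrated stress response, whose protein level is set largely by translation, stood at 136, 316 and 163 CPM in IRF8-cKO and at 217, 419 and 311 CPM in WT. Its log2 fold change was -0.62 (SE 0.39, adjusted p = 0.344), with IRF8-cKO-88 inside the WT range and the other IRF8-cKO libraries below it. Xbp1, counted here without regard to splicing, stood at 670, 1108 and 447 CPM in IRF8-cKO and at 1129, 1096 and 812 CPM in WT (log2 fold change -0.45, SE 0.38, adjusted p = 0.488). Ddit3, encoding the death-linked factor CHOP, stood at 12.0, 37.1 and 7.46 CPM in IRF8-cKO and at 5.95, 21.7 and 15.2 CPM in WT. Both groups spanned several-fold for Ddit3, and its sign turned without IRF8-cKO-88, with a log2 fold change of -0.55 against 0.40 on all libraries. Its interval also overlaps that of its short model and of Mars on the other strand, so reads there may be lost or shared. Creb3l3, a liver-enriched membrane-bound factor of lipid metabolism, lay between 340 and 597 CPM in all libraries with overlapping groups. Nupr1, a stress-induced nuclear protein gene, lay between 1.90 and 8.20 CPM. For the whole role the median log2 fold change was 0.22, with 1 of 6 genes called.

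**Figure D3:**
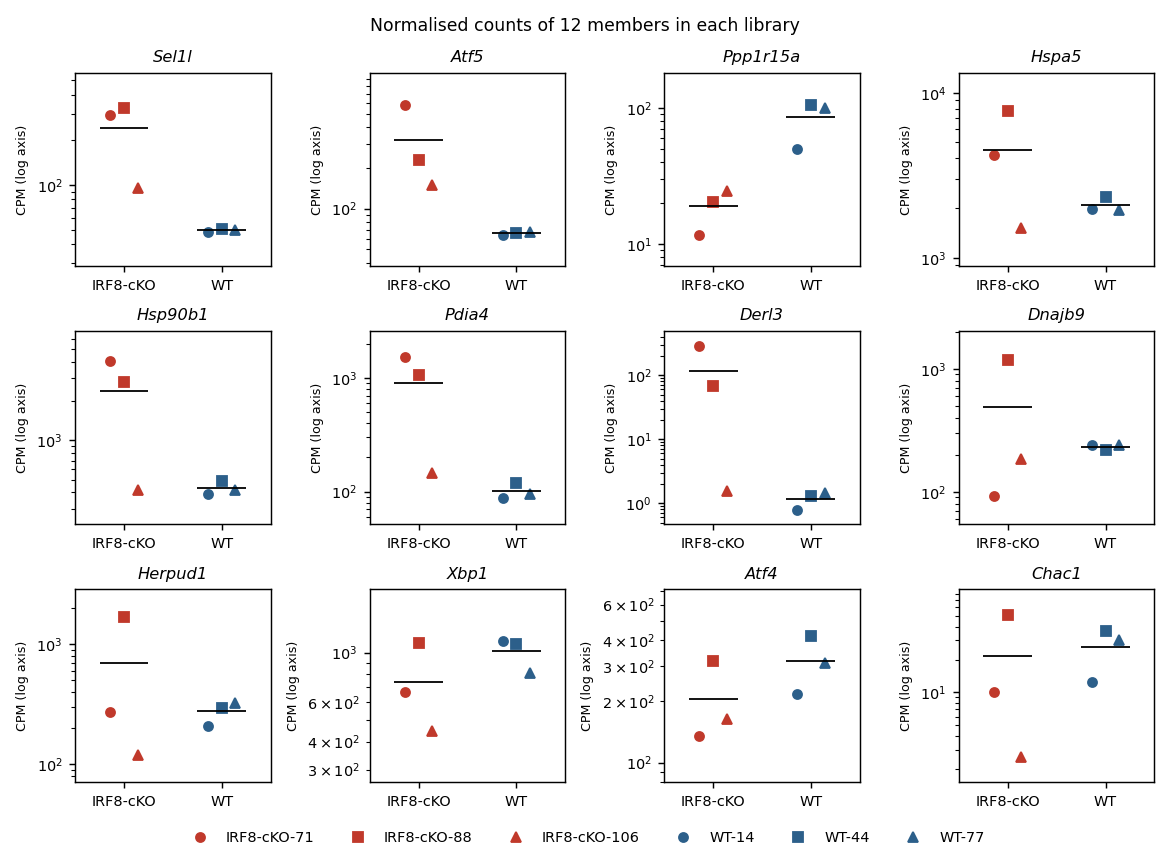
CPM on log axes for 12 members in each IRF8-cKO library (red, left) and WT library (blue, right), with marker shapes for the libraries and a line at each group mean of 3 libraries. Sel1l and Atf5 are above WT and Ppp1r15a below WT in all 3 IRF8-cKO libraries, Hsp90b1, Pdia4 and Derl3 are far above WT in both IRF8-cKO-71 and IRF8-cKO-88, unlike in the other IRF8-cKO library, and Dnajb9 and Herpud1 stand above WT in IRF8-cKO-88 alone.

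The ER chaperones of the HSP70 and HSP90 families and their partners had a median log2 fold change of 1.73, and 9 of 9 were positive. Hspa5, encoding BiP, the main ER chaperone and a marker of the unfolded protein response, stood at 4206, 7734 and 1509 CPM in IRF8-cKO and at 1969, 2342 and 1940 CPM in WT. IRF8-cKO-71 and IRF8-cKO-88 were above every WT library and IRF8-cKO-106 below every WT library. The log2 fold change of 1.11 (SE 0.52, adjusted p = 0.221) did not pass, and it was 0.46 without IRF8-cKO-88. Hsp90b1, encoding GRP94, the ER form of HSP90, stood at 4006, 2782 and 419 CPM in IRF8-cKO and at 388, 487 and 416 CPM in WT. Here, with the composition factors applied, IRF8-cKO-106 lay inside the WT range and the other IRF8-cKO libraries at 9.31 and 6.47 times the WT mean. The log2 fold change of Hsp90b1 was 2.48 (SE 0.67, adjusted p = 0.0878), and 2.99 without IRF8-cKO-106 (adjusted p = 0.0157). With any other library left out its adjusted p was 0.0809 to 0.277.

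Hyou1, a large HSP70-like chaperone that aids nucleotide exchange on BiP, stood at 746, 998 and 195 CPM in IRF8-cKO and at 146, 145 and 115 CPM in WT. Its groups did not overlap, and its log2 fold change of 2.26 (SE 0.52, adjusted p = 0.0606) missed the threshold. It passed without IRF8-cKO-88 (1.80, adjusted p = 0.0450) and without IRF8-cKO-106 (2.71, adjusted p = 0.0211). With any other library left out Hyou1 did not pass (adjusted p 0.0852 to 0.239). Dnajc3, a BiP co-chaperone, stood at 883, 712 and 227 CPM in IRF8-cKO and at 191, 194 and 207 CPM in WT, again without overlap. Dnajb11, another co-chaperone of the J-domain family, stood at 444, 303 and 77.2 CPM in IRF8-cKO and at 86.4, 87.0 and 74.2 CPM in WT. IRF8-cKO-106 lay among the WT values for Dnajb11. For Dnajc3 and Dnajb11 the log2 fold changes were 1.62 (adjusted p = 0.0878) and 1.73 (adjusted p = 0.102).

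Sdf2l1, which works with these J-domain proteins, had a larger range. It stood at 337, 201 and 23.0 CPM in IRF8-cKO and at 32.2, 23.9 and 12.0 CPM in WT. The log2 difference of Sdf2l1 was 3.04 (SE 0.83, adjusted p = 0.0899), and 2.31 without IRF8-cKO-71. Creld2, a disulphide isomerase-like ER stress gene, stood at 904, 867 and 95.5 CPM in IRF8-cKO and at 122, 103 and 55.1 CPM in WT. Its log2 fold change of 2.73 (SE 0.75, adjusted p = 0.0900) became 3.26 without IRF8-cKO-106 (adjusted p = 0.0215). With any other library left out the adjusted p of Creld2 was 0.116 to 0.281. Manf, a secreted ER-stress protein, and Dnajb9, a co-chaperone that restrains IRE1, had log2 fold changes of 1.22 and 1.06 with adjusted p of 0.274 and 0.438, and that of Dnajb9 was -0.76 without IRF8-cKO-88. Over the role 0 of 9 genes passed in edgeR and 0 in limma-voom, 6 passed in DESeq2, and 6 had an unadjusted p under 0.05.

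The lectin chaperones and disulphide isomerases had a median log2 fold change of 1.65, and 5 of 5 were positive. Calr, encoding the soluble lectin chaperone calreticulin, stood at 3471, 1519 and 489 CPM in IRF8-cKO and at 451, 498 and 240 CPM in WT. Its log2 fold change was 2.20 (SE 0.64, adjusted p = 0.0931), and 1.35 without IRF8-cKO-71. Canx, encoding its membrane-bound partner calnexin, stood at 436, 340 and 287 CPM in IRF8-cKO and at 229, 157 and 218 CPM in WT. All IRF8-cKO libraries of Canx were above WT, by a smaller step (log2 fold change 0.81, SE 0.30, adjusted p = 0.147).

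Pdia3, the isomerase that acts on glycoproteins held by the lectin chaperones, stood at 2451, 1241 and 361 CPM in IRF8-cKO and at 457, 505 and 332 CPM in WT. IRF8-cKO-106 was within the WT range, and the log2 fold change was 1.65 (SE 0.58, adjusted p = 0.137) and 0.90 without IRF8-cKO-71. Pdia4 stood at 1519, 1063 and 145 CPM in IRF8-cKO and at 87.6, 120 and 96.3 CPM in WT. This isomerase gene stood second to Derl3 in its ratio to the WT mean in both IRF8-cKO-71 and IRF8-cKO-88 (10.5 in IRF8-cKO-88), was at 1.43 times the WT mean in IRF8-cKO-106, and its groups did not overlap. Its log2 fold change was 3.16 (SE 0.72, adjusted p = 0.0627), and 3.68 without IRF8-cKO-106 (adjusted p = 0.0157). With any other library left out the adjusted p of Pdia4 was 0.0658 to 0.233. Pdia6, an isomerase that also damps IRE1 and PERK, had a log2 fold change of 1.05 (adjusted p = 0.252), and 0.28 without IRF8-cKO-71. Of the 5 genes 0 passed in edgeR and 0 in limma-voom, 3 passed in DESeq2, and 4 had an unadjusted p under 0.05.

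In ER-associated degradation Sel1l rose. It encodes the adaptor that ties substrates to the ubiquitin ligase HRD1, and it stood at 295, 329 and 94.7 CPM in IRF8-cKO and at 48.5, 50.5 and 49.8 CPM in WT. Each IRF8-cKO library was above WT, IRF8-cKO-106 included at 1.91 times the WT mean, and the means were 240 ± 127 CPM in IRF8-cKO and 49.6 ± 0.999 CPM in WT (SD, n = 3 each). This was a 4.83-fold difference, or 2.27 on the log2 scale (SE 0.43, adjusted p = 0.0446). It was 1.98 to 2.67 with any library left out, and the call did not hold without IRF8-cKO-71 (adjusted p = 0.0544), WT-14 (0.0762), WT-44 (0.191) or WT-77 (0.201), nor on all libraries with a gene length correction (0.0632) or limma-voom (0.0522). Sel1l (ENSMUSG00000020964) lies on mm10 chromosome 12, 91806043 to 91849157, minus strand.

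Syvn1, encoding HRD1 itself, stood at 734, 561 and 96.1 CPM in IRF8-cKO and at 85.8, 137 and 86.5 CPM in WT. IRF8-cKO-106 lay inside the WT range, and the log2 fold change was 2.17 (SE 0.63, adjusted p = 0.0975). Derl3, a member of the derlin family of channel-like proteins that retrotranslocate substrates and the member known to be strongly induced by ER stress, had the largest difference of the list. It was covered by 4629, 1090 and 34 reads in IRF8-cKO and by 13, 15 and 22 reads in WT. This gave 285, 67.2 and 1.58 CPM in IRF8-cKO and 0.797, 1.30 and 1.46 CPM in WT. The library IRF8-cKO-71 was at 241 times and IRF8-cKO-88 at 56.8 times the WT mean, while IRF8-cKO-106 was just above the highest WT library. Its log2 fold change of 6.64 (SE 1.52, adjusted p = 0.0665) did not pass, and it was 4.87 without IRF8-cKO-71 (adjusted p = 0.148) and 7.22 without IRF8-cKO-106 (adjusted p = 0.0157). With any other library left out the adjusted p of Derl3 was 0.109 to 0.227. Derl3 is also known from plasma cells, and of 10 plasma and B cell markers 2 passed the count filter, with 0 called. Jchain stood at 2.65, 4.75 and 2.13 CPM in IRF8-cKO and at 2.33, 2.24 and 2.86 CPM in WT, and Tnfrsf17 had 3, 0 and 0 reads in IRF8-cKO and 0 in each WT library. The list summed to 164 to 513 CPM in IRF8-cKO and 329 to 503 CPM in WT. Nearly all of this sum came from Sdc1, which hepatocytes also express. What part plasma cells have in the values of Derl3 was not tested.

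Its relatives had smaller differences. Derl1 stood at 253, 266 and 139 CPM in IRF8-cKO and at 122, 123 and 123 CPM in WT, without overlap (log2 fold change 0.84, SE 0.31, adjusted p = 0.147), and Derl2 lay between 57.1 and 139 CPM in all libraries. Edem1, one of the lectins that pick glycoproteins for disposal, stood at 292, 366 and 105 CPM in IRF8-cKO and at 113, 85.6 and 97.3 CPM in WT. The related Edem3 stood at 65.2, 110 and 74.6 CPM in IRF8-cKO and at 48.3, 45.2 and 38.1 CPM in WT. Edem3 was above all WT libraries in IRF8-cKO-106 as in the other IRF8-cKO libraries. For Edem1 and Edem3 the log2 fold changes were 1.37 (adjusted p = 0.103) and 0.93 (adjusted p = 0.102). Edem2 and the lectin gene Os9, whose product joins the HRD1 complex, had overlapping groups and log2 fold changes of 0.12 and -0.11.

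Herpud1, a scaffold of the HRD1 complex with a short-lived protein, stood at 272, 1678 and 120 CPM in IRF8-cKO and at 207, 296 and 324 CPM in WT. IRF8-cKO-88 was at 6.09 times the WT mean, IRF8-cKO-71 was within the WT range and IRF8-cKO-106 below it. The log2 fold change was 1.33 (SE 0.83, adjusted p = 0.348), and -0.49 without IRF8-cKO-88. Over the 10 degradation genes 9 were positive, 1 passed in edgeR, 4 in DESeq2 and 0 in limma-voom, and the median log2 fold change was 1.13. In the translocon, the channel through which new proteins enter the ER, Sec61a1 stood at 214, 266 and 133 CPM in IRF8-cKO and at 149, 84.5 and 96.7 CPM in WT (log2 fold change 0.89, SE 0.35, adjusted p = 0.164). Its small partner Sec61b stood at 101, 51.3 and 22.7 CPM in IRF8-cKO and at 59.7, 69.6 and 47.6 CPM in WT, with a log2 fold change of -0.01 and IRF8-cKO libraries on either side of the WT range.

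Ppp1r15a fell. It encodes GADD34, the inducible subunit that brings a phosphatase to eIF2 and so ends the block of translation. It stood at 11.7, 20.4 and 24.7 CPM in IRF8-cKO and at 50.3, 106.1 and 101 CPM in WT. All 3 IRF8-cKO libraries, IRF8-cKO-106 with them, were below every WT library, at 0.137, 0.238 and 0.289 times the WT mean. The means were 19.0 ± 6.63 CPM in IRF8-cKO and 85.7 ± 30.7 CPM in WT (SD, n = 3 each), which is 4.51-fold lower in IRF8-cKO, or -2.17 on the log2 scale (SE 0.38, adjusted p = 0.0408). The log2 fold change was -2.44 to -1.91 with any library left out, and the call did not hold without IRF8-cKO-106 (adjusted p = 0.0748), WT-44 (0.176) or WT-77 (0.192), nor on all libraries with the gene length correction (0.0515) or library totals as the only scaling (0.0599). Ppp1r15a (ENSMUSG00000040435) lies on mm10 chromosome 7, 45522916 to 45526268, minus strand.

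Its constitutive counterpart Ppp1r15b stood at 113, 219 and 147 CPM in IRF8-cKO and at 153, 205 and 156 CPM in WT, with overlapping groups and a log2 fold change of -0.10 (adjusted p = 0.865). Trib3, a pseudokinase induced by ATF4 and CHOP that feeds back on ATF4, lay between 2.87 and 11.8 CPM in IRF8-cKO and between 5.27 and 15.7 CPM in WT. The difference in response between the subunit genes was not tested. Neutrophil markers were lower in IRF8-cKO as well (8 of 8 tested without overlap, beside 14.5% of all tested genes). Without overlap, 6 of 7 cholangiocyte and 4 of 5 red cell markers were also lower. Of the Kupffer cell markers 4 of 9 were higher without overlap, and hepatocyte markers went both ways. The part of these cells in the values of Ppp1r15a was not tested.

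Among the targets of the integrated stress response 1 of 4 tested genes was positive. Chac1, encoding an enzyme that degrades glutathione, stood at 10.2, 51.6 and 2.55 CPM in IRF8-cKO and at 12.5, 36.2 and 29.9 CPM in WT. IRF8-cKO-88 was the highest library of all and IRF8-cKO-106 the lowest, a 20.2-fold span within IRF8-cKO, and the log2 fold change was -0.29 (SE 0.88, adjusted p = 0.863) and -2.05 without IRF8-cKO-88. Sesn2, encoding sestrin 2, a sensor of leucine and a brake on mTORC1, stood at 6.47, 14.2 and 9.45 CPM in IRF8-cKO and at 10.7, 18.4 and 14.6 CPM in WT. Its groups overlapped (log2 fold change -0.53, SE 0.37, adjusted p = 0.388). Asns, encoding asparagine synthetase, had overlapping groups and a log2 fold change of 0.19. Vldlr, a lipoprotein receptor gene, had 4, 118 and 54 reads in IRF8-cKO and 74, 93 and 108 reads in WT, with log2 fold change -0.98 (adjusted p = 0.499) and -2.21 without IRF8-cKO-88. Of the 4 tested target genes 0 passed in edgeR, DESeq2 or limma-voom, 0 had an unadjusted p under 0.05, and the median log2 fold change was -0.41.

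The 2 IRF8-cKO libraries with high chaperone levels differed from each other in a part of the list. IRF8-cKO-88 exceeded IRF8-cKO-71 by 29.5 times for Vldlr, 12.8 times for Dnajb9, 6.17 times for Herpud1, 5.09 times for Eif2ak3, 5.07 times for Chac1 and 3.09 times for Ddit3. In these genes IRF8-cKO-71 was near or below the WT mean. Dnajb9 stood at 92.3, 1185 and 183 CPM in IRF8-cKO and at 241, 218 and 241 CPM in WT, which put IRF8-cKO-71 at 0.396 and IRF8-cKO-88 at 5.08 times the WT mean. In the other direction, IRF8-cKO-71 exceeded IRF8-cKO-88 by 4.25 times for Derl3, 2.56 times for Atf5, 2.40 times for Ern1, 2.29 times for Calr and 2.15 times for Pdia6. These are single libraries and their difference has no replicate check.

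**Figure D4:**
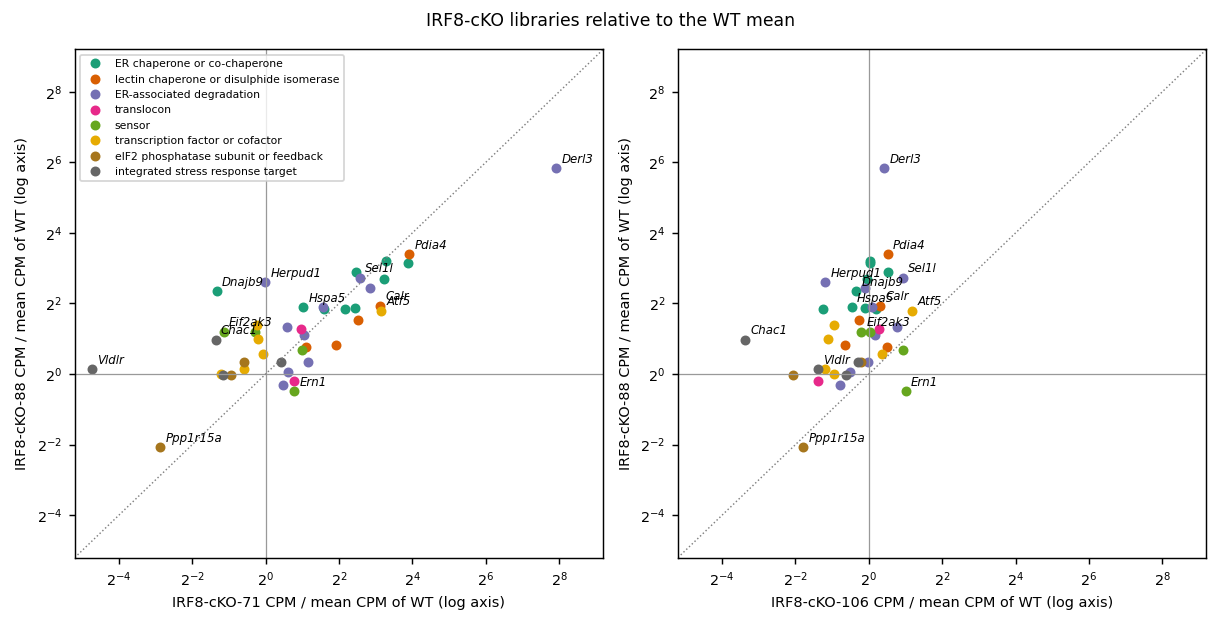
Each tested member's CPM as a ratio to the mean CPM of WT (log axes), in IRF8-cKO-71 against IRF8-cKO-88 (left) and in IRF8-cKO-106 against IRF8-cKO-88 (right), coloured by role, with the dotted line marking equal ratios. In the left panel most chaperone genes lie along the dotted line and Dnajb9, Herpud1, Eif2ak3, Chac1 and Vldlr lie above it, and in the right panel most points lie above the line, Derl3 farthest at 1.33 in IRF8-cKO-106 and 56.8 in IRF8-cKO-88.

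Other genes of the same pathways were taken from 9 lists, in which 155 genes were tested. In edgeR 0 of them passed (smallest adjusted p 0.0554). DESeq2 called 18 of the 155 in either direction, beside 9.46% of all its tested genes, and limma-voom called 0. At an unadjusted p under 0.05, 32 (20.6%) were higher and 10 (6.45%) lower in IRF8-cKO, beside 12.1% and 12% of all tested genes. Further ER folding genes had a median log2 fold change of 0.62, with 19 of 24 positive, and the lowest p was that of Hspa13, an HSP70-like protein gene (log2 fold change 1.29, SE 0.37, adjusted p = 0.0902). Translocation and signal peptide genes had a median of 0.30, with the oligosaccharyltransferase gene Stt3b at 0.89 (adjusted p = 0.127). Further degradation genes had a median of 0.36, with Vcp, the ATPase that pulls substrates from the membrane, at 0.94 (adjusted p = 0.0982). Genes of ATF6 processing and ER-to-Golgi traffic had a median of 0.45, and Mcfd2, encoding a cargo receptor subunit, stood at 1.36 (adjusted p = 0.0824).

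On the eIF2 side the lists divided. Of the genes of eIF2, its kinases and its exchange factor 9 of 11 were positive, while Eif2ak4, the kinase GCN2 that senses uncharged tRNA, had the lowest p of its list (-1.31 on the log2 scale, SE 0.34, adjusted p = 0.0771). Eif2ak4 stood at 5.67, 12.2 and 13.1 CPM in IRF8-cKO and at 22.2, 28.0 and 26.8 CPM in WT, without overlap. Cytosolic aminoacyl-tRNA synthetases, many of them ATF4 targets, were positive in 19 of 20 cases with a median of 0.45, and for 10 of them all IRF8-cKO libraries were above all WT libraries, beside 14.4% of all tested genes. Iars, the isoleucine enzyme, stood at 49.9, 70.4 and 53.3 CPM in IRF8-cKO and at 29.7, 26.8 and 23.5 CPM in WT (log2 fold change 1.12, SE 0.26, adjusted p = 0.0616).

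Further ATF4 pathway targets had a median log2 fold change of -0.66, with 8 of 27 positive. Gpt2, encoding a mitochondrial alanine aminotransferase, had the lowest p and stood at 445, 617 and 665 CPM in IRF8-cKO and at 229, 238 and 214 CPM in WT (1.34, SE 0.29, adjusted p = 0.0554). At an unadjusted p under 0.05, 2 of the 27 were higher and 5 lower, beside 12.1% and 12% of all tested genes. The higher ones were Gpt2 and Cebpg (1.05, adjusted p = 0.0908). Cebpg and the lower genes were picked out after their values were seen, and the lower ones were Gdf15 (-3.97), Atf3 (-3.26), Cebpb (-1.79), Ddit4 (-0.99) and Eif4ebp1 (-0.94), with adjusted p from 0.0583 for Cebpb to 0.169 for Eif4ebp1. Transcripts known to be cut by IRE1 had a median of -0.13, with Scara3 at -1.64 (adjusted p = 0.118). The mitochondrial unfolded protein response, a separate system for the mitochondrial matrix, had a median of 0.42, with the co-chaperone gene Dnaja3 at 1.36 (adjusted p = 0.0740).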

How the data were processed

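Per the submitters' processing notes, reads were handled with HISAT2 2.0.5 and featureCounts 1.5.0-p3 on mm10. The authors deposited raw read counts per gene with gene lengths. Neither notes nor labels give the annotation release, the strand setting or the handling of multiply mapped reads, so reads of overlapping genes may be shared or lost (Hsp90b1, Dnajb11, Manf, Pdia3, Syvn1, Derl2, Atf5 and Ddit3 overlap another gene with reads). Each count column was tied to its library by title.

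Groups were compared with edgeR 4.0.16 (R 4.3.3, TMM factors, filterByExpr at count 10 and total 15, robust quasi-likelihood fit, group as the only term, two-sided test). P-values were adjusted by Benjamini-Hochberg over the 13134 genes tested, with a threshold of 0.05. The SE of a log2 fold change was its size over the square root of F. CPM used TMM-scaled totals, and RPKM divided them by the deposited gene length. The common biological coefficient of variation was 37.1%. P-values set the difference between the groups against the spread between libraries, which may be partly technical. DESeq2 1.42.0, limma-voom (limma 3.58.1), other scalings and filters, a gene length correction and each library left out were alternatives. The tools were also run on simulated counts drawn independently for each gene. Those counts hold no joint shift of many genes in a single library, so they do not bear on such a pattern.

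The members and the lists were chosen with earlier results of these data known. Values in every library are given for members with a p under 0.05, for the lowest p and the highest RPKM of each role, and for the sensors, Xbp1, Atf4 and Ddit3. Each other list names its gene with the lowest p where 0 passed.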

Additional observations from a re-analysis of the deposited data

How the results depend on the processing

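The number of members called higher, 2 of 43, depended on the tool and on single libraries. It was 14 with DESeq2, 15 without the low-count filter, 4 with library totals as the only scaling, 1 with a gene length correction, median-of-ratios scaling, upper-quartile scaling or no robust shrinkage (Atf5 kept its call with the length correction and Sel1l in the other settings with 1), 0 with limma-voom, and 0 to 10 when each library was left out. Over all tested genes the number called higher was 59 of 13134, against 583 of 14273 with DESeq2 and 817 of 24095 without the filter. Of 13134 genes it was 39 with library totals, 21 with the length correction, 52 with median-of-ratios scaling and 53 with upper-quartile scaling. It was 48 with no robust shrinkage and 23 with limma-voom. The number of members called lower, 1, was 0 with the gene length correction or library totals and 0 to 1 with a library left out. The length correction called 56 and library totals 43 of all tested genes lower. At an unadjusted p under 0.05, 1 member was lower, 2 without the low-count filter and 1 to 6 with a library left out. Members without overlap numbered 10 higher and 1 lower, against 17 higher with library totals, 2 lower without the low-count filter, and 10 to 24 higher and 1 to 8 lower with a library left out. The 24 higher without IRF8-cKO-106 stood beside 19% of all tested genes. For the other alternatives, here and at an unadjusted p under 0.05, no share of all tested genes is given. Whether the members alone or all genes moved there is not shown by these counts. The median log2 fold change of the members lay between 0.58 and 1.02 in every alternative run. Library totals moved the median of all genes from 0.03 to 0.25, so changes under that scaling are relative to 0.25. Of the 32 members whose values are given in every library by rule, signs turned for 7, all with no call. With libraries left out Herpud1 ranged over -0.49 to 1.85, Atf6 -0.12 to 0.74, Eif2ak3 -0.60 to 0.67 and Ddit3 -0.55 to 0.82, each negative without IRF8-cKO-88. Eif2ak3 was -0.036 with limma-voom. Sec61b turned with the length correction (0.21), library totals (0.13), no low-count filter (0.000997) or a library left out (-0.67 to 0.38). Ppp1r15b turned with library totals (0.14) or a library left out (-0.40 to 0.10), and Chac1 with a library left out (-2.05 to 0.26). Among the other members, signs turned with a library left out for Dnajb9 (-0.76 to 1.56), Edem2 (-0.19 to 0.36), Os9 (-0.52 to 0.15) and Nupr1 (-0.59 to 0.53). The cause of these shifts was not tested. No paired analysis was possible because the groups share no replicate number. Low depth touches Derl3 in WT, with 13 to 22 reads, and Vldlr, with 4 reads in IRF8-cKO-71. Dixon's test for outlying samples was not run on groups of 3.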
